A study of Mus musculus with 14 samples.

Results

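Open chromatin far from any coding gene was examined in mouse liver: accessible intervals whose midpoint lay outside every RefSeq protein-coding gene and more than 50 kb from each of them. By that rule 7327 of 88203 intervals were distal in the chow table (8.31%) and 8889 of 105801 in the high-fat table (8.4%). All 14 animals were female and carried a floxed matrin-3 gene (Matr3, whose protein sits in the nuclear matrix and binds nucleic acids). Controls carried the floxed gene alone, and their knockout littermates also carried Albumin-Cre, a recombinase driven by the albumin promoter and therefore active in hepatocytes, so that other liver cells keep the gene. Both diets were given from 7 weeks of age for 16 weeks. On normal chow there were 3 knockout and 3 floxed mice. On a diet with 60 kcal% fat there were 4 knockout and 4 floxed mice, which the labels describe as fasted for 12 h. The feeding state of the chow mice is not stated there.

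Accessibility was measured by ATAC-seq, in which a transposase inserts sequencing adapters into DNA that nucleosomes leave exposed, on nuclei from 50 mg of frozen liver per animal. Each value is a count of reads over an interval. Levels are given as CPM (counts scaled to library size) after TMM scaling, and differences as log2 of knockout over floxed with the standard error (SE) of the edgeR quasi-likelihood fit. An interval was called where its Benjamini-Hochberg adjusted p over the whole table was under 0.05. Counts summed to 15.5 to 35.0 M per library on chow and to 7.59 to 10.4 M on the high-fat diet, so a distal interval held a median of 115 to 231 reads per chow library and 48 to 55 per high-fat library. The 2 intervals inside Matr3 in each table did not pass the test (smallest edgeR adjusted p 0.958 on chow, 0.579 on high fat). The labels do not say which part of Matr3 is removed, so these intervals do not check the genotypes. Summed accessibility at the ends of the 10 hepatocyte marker genes was 631 to 1511 CPM over all libraries, and all 10 had an interval there in both tables. For the 8 Kupffer cell markers, 4 had such an interval in the high-fat table.

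Elements of this kind are the usual places of enhancers, stretches of DNA bound by transcription factors that act on promoters over long distances, and of the start sites of long noncoding RNAs. Enhancers often stand in groups within gene-poor stretches, and the gene an enhancer acts on need not be the nearest one. Nearest genes are therefore given here as positions only.

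Distal intervals stood a median of 110.0 kb (chow) and 115.0 kb (high-fat) from the nearest coding gene. A minority lay inside an annotated noncoding gene: 2038 (27.8%) in the chow table and 2494 (28.1%) in the high-fat table, nearly all of them lncRNA genes (1929 and 2287). Another 239 chow and 275 high-fat distal intervals, some of them inside such genes, overlapped a window of 300 bases around the start of a noncoding RefSeq gene (3.26% and 3.09%). These windows are the only stretches of the distal intervals whose sequence could be read. Among the intervals called on the high-fat diet, 3 overlapped such a window, at Gm29924 (between Adgra3 and Ppargc1a), at Gm14321 and Gm32287 (between Cebpb and Ptpn1) and at Gm40399 (between Etv1 and Arl4a). These 4 windows are shown with that of D130051D11Rik, under the most open distal interval of both tables, from RefSeq on GRCm38.p6, written 5′ to 3′ on the strand of the gene, with the bases covered by the high-fat interval in capitals.

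Gm29924 (chr5:51289281-51289580, minus strand): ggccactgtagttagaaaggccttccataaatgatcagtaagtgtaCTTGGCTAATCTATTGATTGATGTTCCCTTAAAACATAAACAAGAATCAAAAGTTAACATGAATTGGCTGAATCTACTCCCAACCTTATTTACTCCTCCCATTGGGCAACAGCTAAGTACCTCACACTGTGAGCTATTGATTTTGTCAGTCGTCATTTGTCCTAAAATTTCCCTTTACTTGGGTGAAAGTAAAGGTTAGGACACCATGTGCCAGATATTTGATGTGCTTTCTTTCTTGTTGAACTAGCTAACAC

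Gm14321 (chr2:167777241-167777540, plus strand): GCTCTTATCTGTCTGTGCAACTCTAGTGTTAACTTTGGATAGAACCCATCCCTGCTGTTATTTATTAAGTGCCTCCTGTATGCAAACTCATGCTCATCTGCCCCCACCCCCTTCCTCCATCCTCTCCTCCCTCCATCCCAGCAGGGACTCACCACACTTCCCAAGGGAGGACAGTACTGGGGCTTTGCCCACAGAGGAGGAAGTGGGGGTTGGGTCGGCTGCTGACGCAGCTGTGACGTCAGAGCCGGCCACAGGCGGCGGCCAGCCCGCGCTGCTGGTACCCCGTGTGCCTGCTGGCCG

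Gm32287 (chr2:167777365-167777664, minus strand): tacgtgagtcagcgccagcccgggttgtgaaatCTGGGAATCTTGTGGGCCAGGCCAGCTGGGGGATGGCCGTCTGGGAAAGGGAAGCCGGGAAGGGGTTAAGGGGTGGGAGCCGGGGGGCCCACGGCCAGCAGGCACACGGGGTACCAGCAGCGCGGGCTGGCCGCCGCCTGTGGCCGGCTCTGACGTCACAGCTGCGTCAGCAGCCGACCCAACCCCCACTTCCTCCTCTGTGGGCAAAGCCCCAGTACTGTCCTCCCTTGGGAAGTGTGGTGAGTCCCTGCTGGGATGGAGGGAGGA

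Gm40399 (chr12:39950577-39950876, minus strand): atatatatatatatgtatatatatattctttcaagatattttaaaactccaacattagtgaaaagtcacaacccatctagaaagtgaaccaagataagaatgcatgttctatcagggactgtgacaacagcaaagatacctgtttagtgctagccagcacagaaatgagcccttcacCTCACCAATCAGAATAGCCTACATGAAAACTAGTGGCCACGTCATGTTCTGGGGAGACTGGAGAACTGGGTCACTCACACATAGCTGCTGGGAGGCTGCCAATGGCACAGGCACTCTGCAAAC

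D130051D11Rik (chr15:85634346-85634645, plus strand): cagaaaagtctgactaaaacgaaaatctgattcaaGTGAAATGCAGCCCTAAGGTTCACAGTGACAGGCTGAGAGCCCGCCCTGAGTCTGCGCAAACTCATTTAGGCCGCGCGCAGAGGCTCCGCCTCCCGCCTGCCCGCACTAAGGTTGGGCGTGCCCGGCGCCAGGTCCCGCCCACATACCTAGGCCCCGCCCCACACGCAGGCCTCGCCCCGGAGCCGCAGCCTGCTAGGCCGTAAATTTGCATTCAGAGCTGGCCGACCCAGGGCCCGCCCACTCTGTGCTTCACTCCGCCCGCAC

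The bases in capitals were open in both genotypes, and in the first 4 windows they belong to intervals that rose in the knockout, by 0.77 (Gm29924), 0.61 (Gm14321 and Gm32287, under 1 interval) and 0.88 (Gm40399) on the log2 scale. Both strands of the windows were searched for the letters TGANTCA (AP-1), TGTTTAC (forkhead factors), TTGCNNCAA (C/EBP factors) and CAAAGTCCA (HNF4). The windows of Gm29924, Gm14321 and Gm40399 held none of these letters. That of Gm32287 held TGANTCA once, at base 5, and that of D130051D11Rik once, at base 28, both outside the capitals. Among 333 start windows under distal intervals, TGANTCA occurred in 24 (7.21%), against 7.81% of 32817 windows genome-wide. TGTTTAC occurred in 19 (5.71% against 3.65%), TTGCNNCAA in 9 (2.7% against 2.08%) and CAAAGTCCA in 2 (0.601% against 0.475%).

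The 3 most open distal intervals did not differ between genotypes beyond the spread of the libraries. At D130051D11Rik, 100.3 kb from Ppara, which encodes a receptor that drives fatty acid oxidation, the high-fat interval (chr15 85634381 to 85634881) held 75.1, 69.6, 57.5 and 85.4 CPM in the knockouts and 67.9, 64.6, 59.7 and 68.4 CPM in the floxed mice. The groups overlapped, and the log2 difference was 0.14 ± 0.10 (SE, edgeR adjusted p = 0.683). Its chow counterpart held 64.1 to 79.8 CPM in the knockouts and 63.4 to 81.4 CPM in the floxed mice. An interval between Eipr1 and Myt1l (chr12 29290834 to 29291334) held 56.0 to 74.5 CPM against 49.7 to 60.8 CPM on the high-fat diet. The third, 62.2 kb from Cp, the gene of the plasma copper protein ceruloplasmin (chr3 19894488 to 19894988), held 48.6 to 55.6 CPM against 46.1 to 61.8 CPM. These levels were far above those of a typical distal interval, whose median was 6.88 CPM on chow and 5.69 CPM on the high-fat diet, against 8.09 and 6.86 CPM for all other intervals.

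As a whole, distal intervals moved little. The share of interval reads that fell in distal intervals was 6.55, 6.75 and 6.62% in the chow knockouts and 6.39, 6.47 and 6.49% in the chow floxed mice, so these groups did not overlap. On the high-fat diet it was 6.21, 6.34, 6.78 and 6.55% in the knockouts and 6.08, 6.14, 6.59 and 6.53% in the floxed mice, which overlapped. The median log2 difference of distal intervals was 0.025 in both tables, against -0.003 over all chow intervals and -0.004 over all high-fat intervals. Scaling by library totals alone left it at 0.007 (all intervals -0.022) on chow and at 0.029 (all intervals -0.001) on the high-fat diet. Each interval's name begins with KO or WT. Names beginning KO made up 53.7% of distal chow intervals and 51.7% of distal high-fat intervals, against 49.6% and 49.3% of the others. A site open alike in both genotypes also carries just 1 prefix: that at D130051D11Rik was WT on chow and KO on the high-fat diet. The prefix therefore does not show that a site was found in 1 genotype only.

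On the high-fat diet, 74 distal intervals were called, 62 higher and 12 lower in the knockout. That is 0.832% of distal intervals, close to the 0.751% called over the whole table. The direction differed from the rest of the table: 0.448% of all intervals were called higher and 0.303% lower, and 57.1% of the called intervals outside the distal set were higher, against 83.8% of the distal ones. Without a single run on chromosome 13, which holds 16 of the rises, 58 distal intervals were called (0.654%), 79.3% of them higher. The difference between these shares was not tested. Called rises also outnumbered falls outside the distal set at 1 to 10 kb (65 against 33) and 10 to 50 kb (56 against 19) from coding genes. Up to 1 kb away they did not (20 against 25). Called rises ranged from 0.52 to 3.38 and called falls from -0.62 to -1.23 on the log2 scale, with medians of 1.09 and -0.83. The knockout and floxed libraries did not overlap in 69 of the 74. Calls made on these same libraries favour such separation, so it adds no support of its own. Over all distal intervals the groups did not overlap in 498 (5.6%), close to the 5.3% of all intervals. All 62 rising intervals had names beginning KO and all 12 falling ones names beginning WT, so these are sites chosen on the same animals that are compared. Beside these calls, summed CPM at the ends of the 4 Kupffer cell marker genes with an interval was 55.8 to 58.7 in the knockouts and 43.9 to 53.3 in the floxed mice, while Vsig4, Adgre1, Timd4 and Marco had no interval. The other cell type marker sets overlapped between genotypes, among them sinusoidal endothelium (60.8 to 73.0 CPM in the knockouts, 65.6 to 79.2 CPM in the floxed mice). The part of Kupffer cells in the calls was not tested. In whole liver a change in cell numbers cannot be told apart from a change in accessibility per cell. The count depended on single libraries: it fell to 47, 33 and 33 without knockout 2, 3 or 4 (0.597, 0.339 and 0.287% of all intervals called), to 39 without floxed 2 (0.413%) and to 25 without floxed 4 (0.308%).

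The balance between rises and falls changed with distance from coding genes. Inside genes, 271 intervals were called higher and 232 lower (0.408% and 0.349% of 66499). Up to 1 kb away 20 were higher and 25 lower (0.257% and 0.321% of 7793). Rises already outnumbered falls nearer than the distal limit. There were 65 and 33 at 1 to 10 kb (0.573% and 0.291% of 11349), and 56 and 19 at 10 to 50 kb (0.497% and 0.169% of 11271). At 50 to 100 kb the counts were 27 and 6 (0.702% and 0.156% of 3847), and at 100 to 200 kb they were 13 and 5 (0.478% and 0.184% of 2719). Beyond 200 kb, 22 were higher and 1 lower (0.947% and 0.043% of 2323). Of those 22, 16 belong to a single locus on chromosome 13, and without it 6 remained (0.258%). The rise in the share with distance beyond 200 kb thus rested on that locus, whereas falls were fewest beyond 200 kb with or without it. No trend test was run, since neighbouring intervals share their reads' source.

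**Figure D1:**
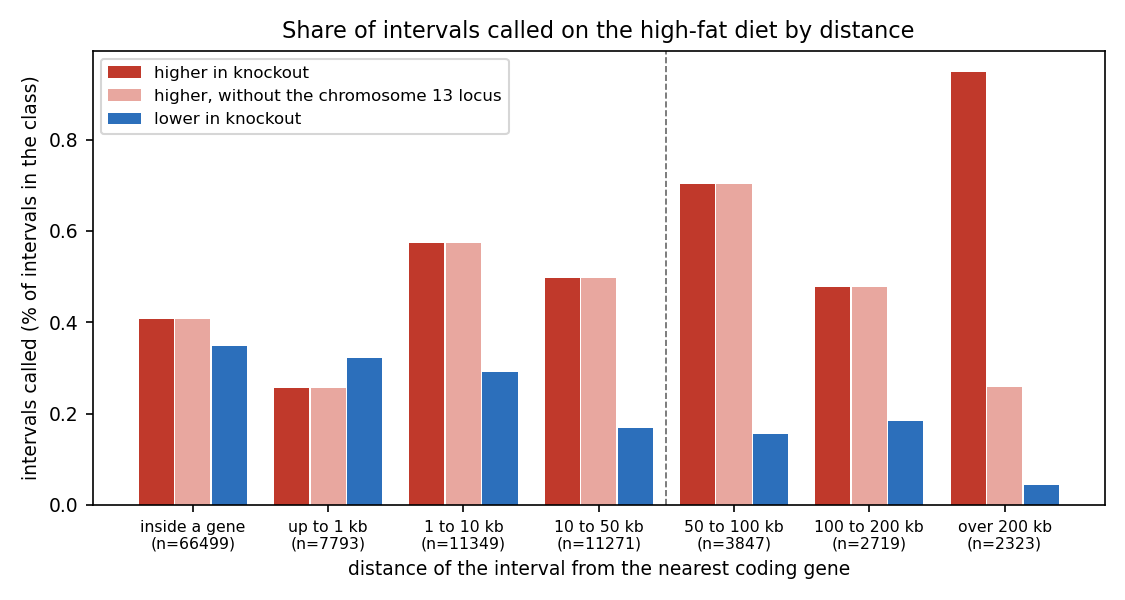
Share of intervals called on the high-fat diet (percent of the intervals in each class, vertical axis from 0) by distance from the nearest coding gene, with the distal classes right of the dashed line. Dark red bars are intervals higher in the knockout, pale red bars the same without the chromosome 13 locus, and blue bars intervals lower in the knockout. The tallest bar, 0.947% beyond 200 kb, drops to 0.258% without that locus.

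The chromosome 13 locus held the strongest distal change. Neighbouring intervals at most 5 kb apart were joined into runs by position alone, and 20 intervals formed one run from 52176489 to 52197284 (mm10, 20.8 kb). It lies 328.3 kb past Gadd45g, a stress-inducible gene linked to growth arrest and DNA damage, and 307.3 kb before Diras2, which encodes a small GTPase related to Ras. No annotated noncoding gene covered it, and the nearest stood 25.8 to 46.1 kb from its intervals. Summed over the run, the knockouts held 130.0, 175.0, 229.0 and 278.0 CPM and the floxed mice 75.6, 57.2, 69.5 and 63.0 CPM. Every knockout was above every floxed animal, with a 1.72-fold gap between the lowest knockout and the highest floxed library. The knockouts spread more than the floxed mice: 203.0 ± 64.4 against 66.3 ± 7.96 CPM (mean ± SD, n = 4 each). Knockout 4 held 2.14 times the level of knockout 1, and knockout 1 was the lowest knockout in 19 of the 20 intervals. The run's log2 difference was 1.61 ± 0.15 (SE, edgeR adjusted p = 3.2e-08), the smallest p among all 47285 runs of the table. It stayed between 1.43 and 1.78 when any 1 library was left out, with an adjusted p of 3.42e-06 at most. All 20 intervals of the run have names beginning KO. The run was thus joined by position from sites chosen on the same animals that are compared. Its p, its length and the shared direction of its intervals carry that limit.

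All 20 intervals of the run had log2 differences above 0 (0.54 to 3.38, median 1.5), and 16 were called, over 14.4 kb. The largest difference was at 52187442 to 52187942, where the knockouts held 3.97, 6.95, 13.8 and 19.4 CPM and the floxed mice 1.91, 0.39, 0.754 and 1.15 CPM (log2 3.38 ± 0.40, edgeR adjusted p = 2.7e-05). All floxed animals were far below the median of distal intervals there, and 3 of 4 knockouts were above it. The most open interval of the run was its neighbour at 52188073 to 52188573, with 10.5, 14.7, 27.9 and 31.6 CPM against 3.82, 3.71, 6.03 and 5.07 CPM (log2 2.18 ± 0.26, edgeR adjusted p = 2.23e-05). Another 3 of the 6 largest called distal rises were also in the run: 52185745 to 52186245 by 2.56 ± 0.29 (SE), 52185107 to 52185607 by 2.53 ± 0.32 (SE) and 52184202 to 52184702 by 2.18 ± 0.29 (SE), with edgeR adjusted p-values of 1.59e-05 to 8.93e-05. The first and last intervals of the run, at 52176489 and 52196784, had differences of 0.85 ± 0.27 (SE) and 0.54 ± 0.18 (SE), and neither was called (edgeR adjusted p = 0.176 and 0.212). Inside the run, 52179737 had a difference of 0.66 ± 0.22 (SE, edgeR adjusted p = 0.209) and 52195222 one of 1.24 (edgeR adjusted p = 0.0641). In 1 called interval the groups overlapped: at 52189484 to 52189984 knockout 1 held 3.76 CPM, below the 6.29 CPM of floxed 1. That call was lost without knockout 2, 3 or 4 or floxed 2 or 4 (adjusted p = 0.065 to 0.206). Leaving out 1 library at a time left 12 to 17 of the 20 intervals called.

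**Figure D2:**
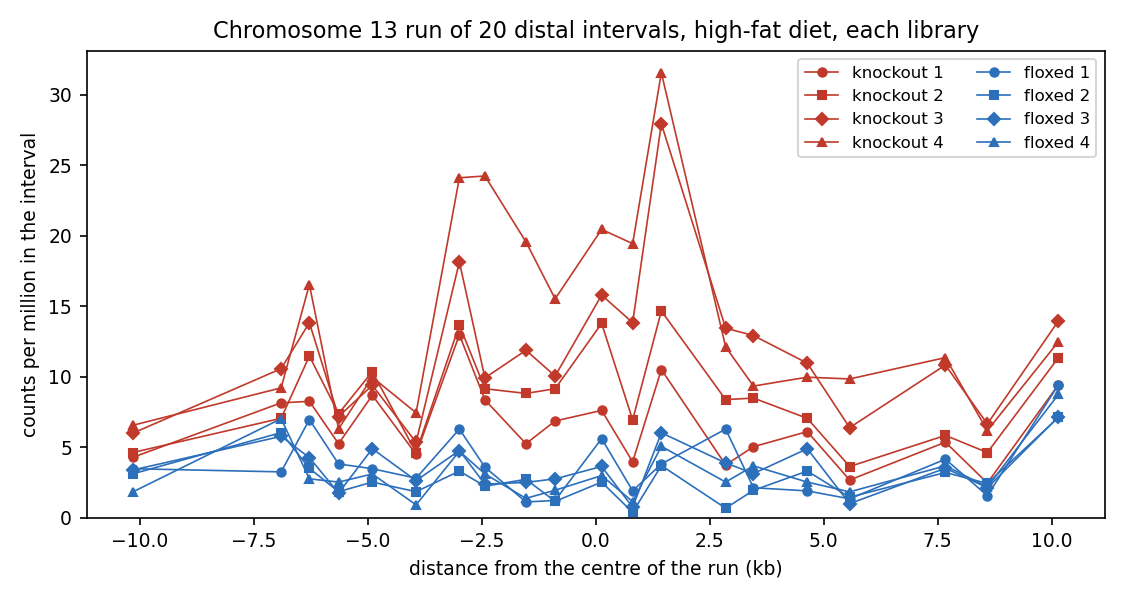
CPM in each of the 20 intervals of the chromosome 13 run on the high-fat diet, by distance from its centre in kb. Each line is 1 library (red knockout, blue floxed, symbols give the animal's number). Knockouts 3 and 4 peak at 27.9 and 31.6 CPM near the centre, where the floxed libraries hold 3.71 to 6.03 CPM, and the lines converge at the right edge.

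Outside the run the surrounding stretch mostly leaned the same way on the high-fat diet, with a smaller median difference. Between Gadd45g and Diras2 another 38 distal intervals had a median log2 of 0.31, with 33 of 38 above 0 and none called. Over all high-fat distal intervals the median was 0.025, with 54.0% above 0. The intervals closest on the left, 52152980 to 52155890, had differences of 0.08 to 0.54, and their groups overlapped. On the right, an interval at the start of the lncRNA gene Gm33041 (52222139 to 52222639) held 14.8, 12.9, 15.4 and 18.2 CPM in the knockouts and 9.55, 12.2, 9.3 and 10.1 CPM in the floxed mice, without overlap (log2 0.57 ± 0.16, edgeR adjusted p = 0.114). The next one, inside Gm33041 at 52223252, had a difference of -0.10 ± 0.19 (SE). Beside Gadd45g, and so outside the distal set, an interval at -337.23 kb from the run's centre was called higher (log2 1.12 ± 0.20, SE). The chow interval at -337.46 kb was lower (log2 -1.79 ± 0.33, SE) and not called.

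On chow the same stretch lay on the other side of 0. The chow table held 4 intervals over the run in place of 20, and all 4 were slightly lower in the knockout (log2 -0.35 to -0.58). None was called (smallest edgeR adjusted p = 0.693). Their knockout levels were 2.66 to 5.9 CPM and their floxed levels 4.1 to 8.39 CPM. Across the whole stretch 31 of 39 chow intervals were below 0, with a median of -0.23 and no call. Matched intervals allowed the 2 diets to be compared in 1 fit. At 52183648 the genotype difference was larger on the high-fat diet than on chow by 2.24 ± 0.36 (SE, edgeR adjusted p = 0.00445). At 52191281 it was larger by 2.04 ± 0.38 (SE, edgeR adjusted p = 0.0135), and this call was lost without chow knockout 1 (adjusted p = 0.0563). The other intervals of the run had no chow counterpart to test, or fell short of the threshold.

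**Figure D3:**
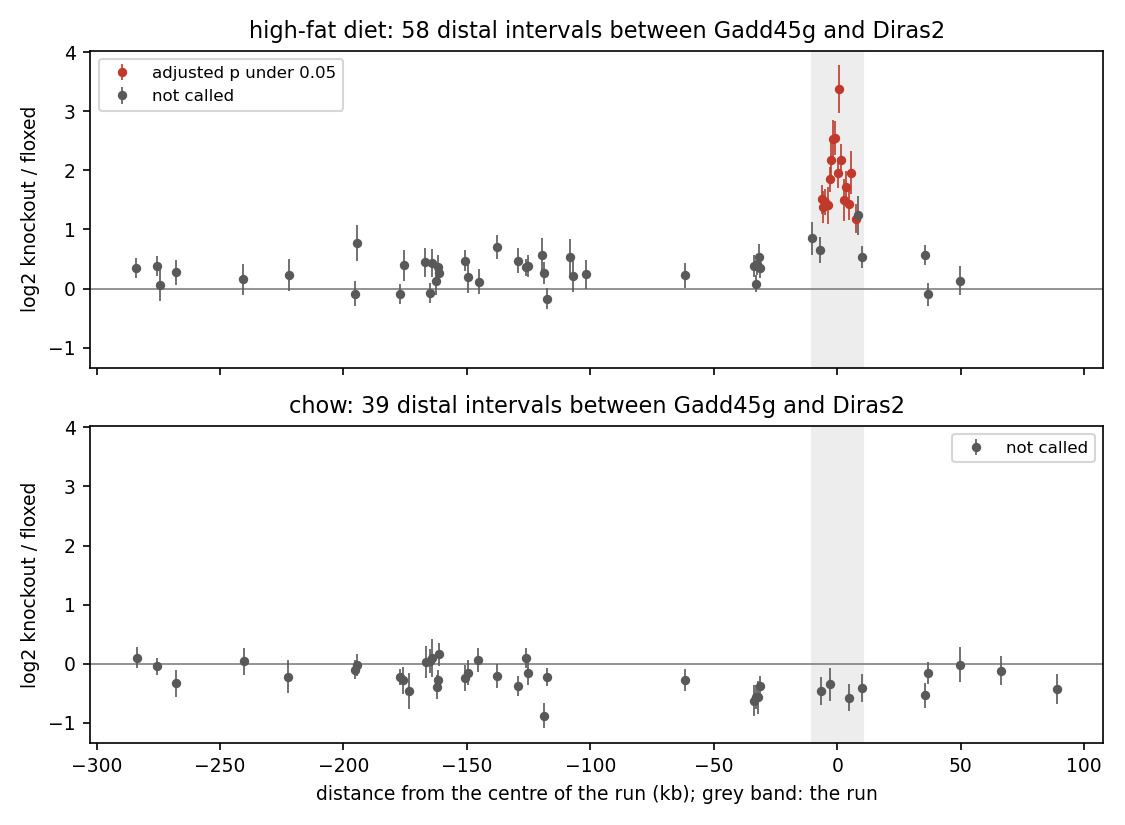
Log2 difference between knockout and floxed (points, bars are 1 standard error) for every distal interval between Gadd45g and Diras2, by distance from the centre of the run in kb, with the high-fat diet above and chow below. Red points passed an adjusted p under 0.05. The 16 red points stand within the grey band of the run, reaching 3.38, and no chow interval there is above 0.

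Distal runs of 2 or more intervals numbered 1390 on the high-fat diet, and 29 of them were called, 25 higher and 4 lower. That is 2.09% of distal runs, where 0.755% of all runs, single intervals included, were called (0.467% higher, 0.288% lower). In 12 of the 29 no interval had passed alone, and within each of these all intervals differed in 1 direction. The log2 differences of such runs reached 0.87 and -0.99. The run count fell to 17, 11 and 15 without knockout 2, 3 or 4 (0.444, 0.328 and 0.389% of all runs called), to 15 without floxed 1 (0.476%) and to 13 without floxed 4 (0.281%), and it rose to 61 without floxed 3 (1.79%). After chromosome 13, the largest was near Galnt2, which encodes an O-glycosylation enzyme, inside the lncRNA gene Gm30081 (chr8 124141974 to 124143518). Its 2 intervals held 15.3, 12.1, 9.92 and 21.2 CPM in the knockouts and 8.24, 5.06, 8.32 and 7.4 CPM in the floxed mice (log2 1.02 ± 0.20, edgeR adjusted p = 0.00618). Knockout 4 was the highest, and without it the adjusted p was 0.0677.

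A run 165.0 kb from Ppargc1a, whose protein coactivates genes of mitochondria and of fasting glucose production, covered the start of Gm29924 printed above (chr5 51288094 to 51289534). Its knockouts held 16.6, 21.5, 26.6 and 24.9 CPM and its floxed mice 13.4, 14.4, 10.6 and 10.6 CPM. Every knockout was above every floxed animal (log2 0.86 ± 0.15, edgeR adjusted p = 0.00186), and the run stayed called without any 1 library. A second run of the same stretch, 413.2 kb from Ppargc1a, rose by 0.65 ± 0.14 (SE, edgeR adjusted p = 0.0131), and was not called without knockout 3 or 4 (adjusted p = 0.127 and 0.0668). Near Irf2bp2, a transcriptional corepressor gene, the run at chr8 126685118 to 126687177 held 12.6 to 19.4 CPM in the knockouts and 8.08 to 9.38 CPM in the floxed mice (log2 0.88 ± 0.16, edgeR adjusted p = 0.00353). It too stayed called without any 1 library. A further run, 147.0 kb from Ahr, the gene of the dioxin receptor, held 11.3 to 18.8 CPM against 6.71 to 11.9 CPM (chr12 35681765 to 35685666, log2 0.87 ± 0.18, edgeR adjusted p = 0.00894). These groups overlapped slightly, knockout 4 lying below floxed 3, and the call was lost without knockout 2 or floxed 4 (adjusted p = 0.0596 and 0.0659).

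Among the falls, the largest run lay between Rtl1 and Dio3, imprinted genes of chromosome 12 (chr12 109986221 to 109991536). Its 2 intervals held 4.19, 5.08, 3.56 and 3.61 CPM in the knockouts and 4.8, 9.6, 7.95 and 10.5 CPM in the floxed mice. Floxed 1 stood apart from the other floxed animals and overlapped the knockouts (log2 -0.99 ± 0.23, edgeR adjusted p = 0.0319). The call was lost without knockout 3 or 4 or floxed 2 or 4 (adjusted p = 0.117, 0.108, 0.119 and 0.181), and with limma-voom (adjusted p = 0.0716). The other falling runs lay between Glrx3 and Tcerg1l (-0.73), between Shcbp1 and Slc10a2, the bile acid transporter gene (-0.67), and between Hif1an and Pax2 (-0.67). Each of these 3 was lost without 2 or more single libraries (adjusted p up to 0.0814, 0.16 and 0.0538). Another 4 rising runs are named after their values were seen. That 55.3 kb from Irs2, the insulin receptor substrate gene, held 37.1, 52.8, 50.1 and 50.3 CPM in the knockouts and 30.9, 35.6, 37.1 and 30.9 CPM in the floxed mice over 6 intervals (log2 0.50). That 187.5 kb from Foxo1, whose protein turns on glucose production in fasting, held 37.7 ± 2.79 CPM against 27.4 ± 1.69 CPM over 5 intervals (mean ± SD, n = 4 each, log2 0.46), with no overlap. Runs 71.2 kb from Trib1 and 58.9 kb from Gata6 rose by 0.52 and 0.83. The Gata6 run kept its call without any 1 library, whereas those near Irs2, Foxo1 and Trib1 lost it without 5, 6 and 6 of the 8 libraries in turn (adjusted p up to 0.113, 0.134 and 0.107).

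**Figure D4:**
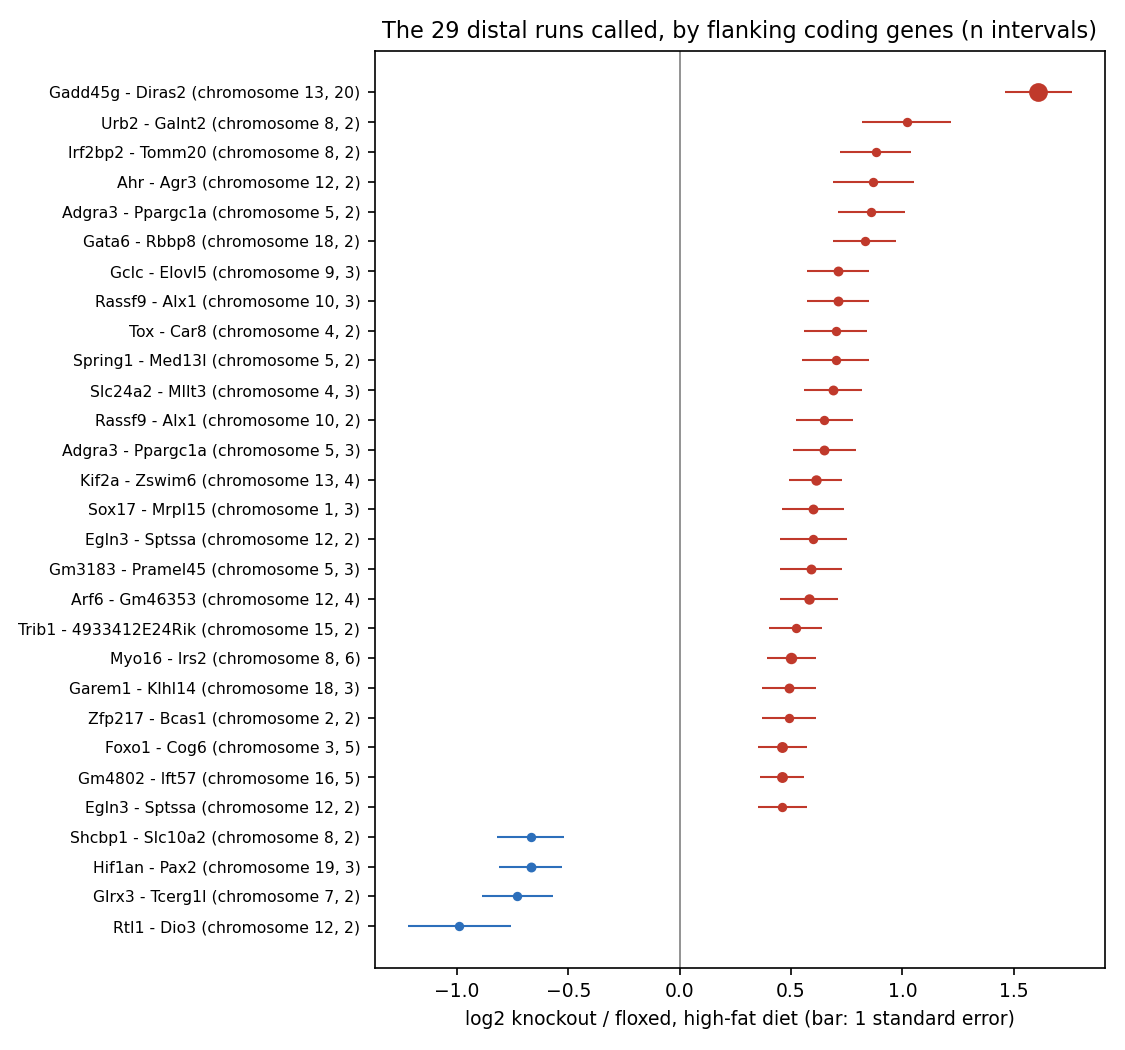
Log2 difference between knockout and floxed on the high-fat diet for the 29 distal runs called (points, larger for more intervals, with bars of 1 standard error), labelled by the flanking coding genes, chromosome and number of intervals. The chromosome 13 run stands at 1.61, the other 24 rising runs lie between 0.46 and 1.02, and the 4 falling runs between -0.99 and -0.67.

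Length alone did not mark a run that moved. The high-fat table held 12 distal runs of 10 or more intervals, and only that on chromosome 13 was called. The longest had 161 intervals over 173.0 kb of the lncRNA gene Lncpint and its surroundings (chr6 31049084 to 31222059). Its knockouts held 1467, 1593, 1350 and 1512 CPM and its floxed mice 1559, 1531, 1188 and 1207 CPM, which overlapped (log2 0.11 ± 0.14, edgeR adjusted p = 0.85). A run of 22 intervals beyond Cebpb (chr2 167740750 to 167781945) had a difference of 0.15 ± 0.10 (SE, edgeR adjusted p = 0.662), although its interval over the starts of Gm14321 and Gm32287 was called. That interval (chr2 167777131 to 167777631) held 26.1, 24.8, 23.9 and 29.0 CPM against 18.8, 18.9, 16.0 and 14.2 CPM (log2 0.61 ± 0.13, edgeR adjusted p = 0.0182). It was not called without knockout 4 or floxed 4 (adjusted p = 0.101 and 0.104). Another 24 intervals between Irf2bp2 and Tomm20 (chr8 126824588 to 126856858) summed to a difference of 0.04 ± 0.10 (SE), with 2 of them called higher inside the lncRNA gene Gm31718.

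Called distal intervals were mostly solitary. With calls up to 100 kb apart counted as one locus, the 74 intervals made 53 loci, 42 rising and 11 falling, and 47 of the 53 held a single call. The 6 loci with 2 or more calls each moved in 1 direction. Beside chromosome 13 and the Ppargc1a side, they were 3 rising intervals between Egln3, a prolyl hydroxylase gene of the hypoxia response, and Sptssa (0.83 to 1.06), 2 between Rassf9 and Alx1 (0.70 and 1.25), 2 in Gm31718 (0.86 and 1.29), and 2 falling intervals of the pseudogene Cyp2d36-ps. The largest single rise outside chromosome 13 was at chr5 119952022 to 119952522, 67.1 kb from Tbx5, a heart and limb transcription factor gene. Its knockouts held 3.76, 5.63, 8.75 and 8.21 CPM and its floxed mice 0.674, 1.56, 2.51 and 1.61 CPM, with no overlap (log2 2.04 ± 0.34, edgeR adjusted p = 0.00135).

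Called falls reached -1.23 on the log2 scale. The largest, inside the lncRNA gene Gm32068 (chr14 24959970 to 24960470, 463.3 kb from Rps24 and 497.7 kb from Zmiz1), held 5.9, 4.85, 5.22 and 3.91 CPM in the knockouts and 11.2, 10.9, 12.3 and 12.3 CPM in the floxed mice. The groups were tight and well apart (log2 -1.23 ± 0.19, edgeR adjusted p = 0.00079), and the call held without any 1 library. Between Irx3 and Irx5, homeobox genes, an interval at chr8 91987647 to 91988147 fell from 4.9 to 8.41 CPM in the floxed mice to 2.25 to 3.64 CPM in the knockouts (log2 -1.21 ± 0.26, edgeR adjusted p = 0.0145). It was not called without knockout 3 (adjusted p = 0.0658) or floxed 4 (adjusted p = 0.107). At chr3 129450644 to 129451144, 81.5 kb from Elovl6, a fatty acid elongase gene, the knockouts held 5.68 to 7.3 CPM and the floxed mice 8.77 to 19.7 CPM (log2 -1.10 ± 0.20, edgeR adjusted p = 0.00513). Inside Gm12724, 61.1 kb from Usp24, an interval at chr4 106254664 to 106255164 held 4.17 to 6.73 CPM against 8.99 to 13.5 CPM (log2 -0.92 ± 0.20, edgeR adjusted p = 0.0186). In Cyp2d36-ps, a pseudogene within the Cyp2d family of drug-metabolising enzymes, the intervals at chr15 82672301 and 82671389 fell by 1.04 ± 0.19 (SE) and 0.85 ± 0.20 (SE). The first held 7.39 to 11.4 CPM against 12.1 to 24.1 CPM, and the second overlapped, with 13.9 CPM in knockout 1 and 13.1 CPM in floxed 1. Without floxed 4 the edgeR adjusted p-values were 0.0598 at Elovl6, 0.0938 at Usp24, and 0.0537 and 0.323 at Cyp2d36-ps. The Usp24 call was also lost without knockout 4 or floxed 2 (adjusted p = 0.115 and 0.106), and the second Cyp2d36-ps call without knockout 2, 3 or 4 (adjusted p = 0.114, 0.136 and 0.171). Reads from near-identical Cyp2d copies could be placed at either copy, so the pseudogene values are uncertain.

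Few of the coding genes nearest to the called distal intervals carried a called interval themselves, though a larger share than of all genes. The 74 intervals pointed by position to 55 nearer coding genes, of which 51 had intervals inside or within 50 kb. Of those, 4 held a called one (7.84%, against 2.06% of all 16043 genes with intervals), and in each it had the sign of the distal call. These were Apob, the structural protein of very low density lipoprotein (4 of 57 intervals lower), Cyp3a41a, a steroid and drug hydroxylase (4 of 19 lower), Elovl6 (1 of 28 lower) and Vwa5b1 (1 of 2 higher). The distal call nearest to Cyp3a41a lies inside the pseudogene Cyp3a63-ps, between Cyp3a41b and Cyp3a41a. As at Cyp2d36-ps, the placing of reads among similar copies is uncertain there. Genes with more intervals have more chances to hold a call, and the shares were not tested. None of the 26 intervals of Ppargc1a, the 30 of Insr, the insulin receptor gene, or the 36 of Irs2 was called.

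On chow no distal interval was called (smallest edgeR adjusted p = 0.0506), where 20 intervals, 0.0227%, were called over the whole table, 1 higher (0.00113%) and 19 lower (0.0215%). At an unadjusted edgeR p under 0.05 there were 591 distal intervals (8.07%, against 6.77% of all intervals), 381 higher and 210 lower. DESeq2 called 20 distal intervals (5 higher, 15 lower, 0.617% of all intervals called) and limma-voom 47 (19 higher, 28 lower, 0.768% of all). With the library number as a block, edgeR called 1 distal interval, lower in the knockout, and 0.143% of all. Leaving out floxed 2 gave 15 distal calls, 14 of them lower (0.685% of all intervals called), and leaving out both libraries numbered 2, the shallowest of the table, gave 9, all lower (0.378%). Of the 1264 distal runs none was called by edgeR (0.0% of all runs), 151 had an unadjusted p under 0.05, which 6.68% of all runs reached, and the block gave 2 (0.0492% of all). Without floxed 2 there were 4 called runs (0.15% of all). DESeq2 called 1 run (0.109%) and limma-voom 80 (3.51%). The summed CPM at the ends of the 2 stellate cell markers with an interval, Lrat and Reln, was 44.0 to 62.2 in the chow knockouts and 38.0 to 40.1 in the floxed mice. Des, Dcn, Colec11 and Pdgfrb had no interval, and at the other marker sets with an interval the groups overlapped. The part of stellate cells in these differences was not tested.

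The chow distal intervals and runs with small p-values, named here after their values were seen, held both falls and rises. Among the rises, an interval 320.0 kb from Foxa2, a forkhead factor gene of the liver (chr2 147722632 to 147723132), held 11.2, 8.84 and 11.1 CPM in the knockouts and 5.75, 5.97 and 3.8 CPM in the floxed mice (log2 1.02 ± 0.21, edgeR adjusted p = 0.227). A pair of chow runs was also higher, by 0.47 ± 0.12 (SE, between Sema6d and Slc24a5) and 0.62 ± 0.15 (SE, between Ets1 and Kirrel3), both with an edgeR adjusted p of 0.541 and with 0.0708 and 0.0651 under the block. With limma-voom both passed (adjusted p = 0.0151 and 0.011). The interval closest to the threshold lay between Sec61g and Egfr, the epidermal growth factor receptor gene (chr11 16589028 to 16589528, 162.9 kb from Egfr), with 4.09, 4.77 and 5.07 CPM in the knockouts and 17.7, 10.2 and 17.6 CPM in the floxed mice. The groups were far apart (log2 -1.72 ± 0.23, edgeR adjusted p = 0.0506). Its run of 3 intervals held 8.05, 11.4 and 10.6 CPM against 26.2, 20.3 and 25.1 CPM (log2 -1.26 ± 0.16). The edgeR adjusted p of this run was 0.181, and with the block 0.0372. DESeq2 and limma-voom gave 9.43e-07 and 0.000402 for it. All 8 chow distal intervals before Egfr were below 0 (-0.32 to -1.72), while the 3 in the high-fat table were above 0 (0.27 to 0.56) and not called. For the 2 of these that matched between tables, the difference between diets did not pass either (adjusted p = 0.368 and 0.253).

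A second chow stretch lay between Wdr72 and Onecut1, which encodes a hepatocyte transcription factor also known as HNF6. Of its 26 chow distal intervals 25 were below 0, with a median log2 of -0.60 and none called. At chr9 74526471 to 74526971, inside the lncRNA gene Gm33459, the knockouts held 0.974, 1.51 and 1.06 CPM and the floxed mice 5.43, 2.9 and 6.43 CPM (log2 -2.11 ± 0.34, edgeR adjusted p = 0.096). The run of 7 intervals around it held 21.6, 21.7 and 30.9 CPM against 28.2 to 63.3 CPM, floxed 2 lying below knockout 3 (log2 -0.95 ± 0.24). Its edgeR adjusted p was 0.541, and 0.0558 with the block. It passed with limma-voom (adjusted p = 0.0105) and not with DESeq2 (adjusted p = 0.0812). In the high-fat table the stretch held 14 intervals, 9 of them below 0, with a median of -0.08 and no call.

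High-fat calls had little counterpart on chow. Of the 74 called high-fat distal intervals 38 had a matched chow interval. The chow difference had the same sign in 24 of 38: above 0 in 17 of 27 rises and below 0 in 7 of 11 falls. For the rises the median was 0.84 on the high-fat diet and 0.04 on chow, and for the falls -0.82 and -0.19. None passed on chow (smallest edgeR adjusted p = 0.539). Over 5831 matched distal intervals the difference between diets was called in 6, 0.103%, against 0.183% of all 73945 matched intervals (4 higher where 0.134% were, 2 lower where 0.0487% were). It was 1 without chow knockout 1 (0.111% of all), 11 without chow knockout 2 (0.23%), 18 without chow floxed 2 (0.5%) and 2 without high-fat floxed 2 (0.123%). It was 3 without chow knockout 3 (0.206%) or without high-fat knockout 3 or 4 (0.147 and 0.124%) or floxed 1, 3 or 4 (0.161, 0.179 and 0.12%). Diets differ in table, depth and described fast, so their part in such a difference cannot be told apart.

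Beside the chromosome 13 pair, the largest of the 6 was at chr4 3407874 to 3408374, between Gm52720 and Tmem68. On chow the knockouts held 6.23, 4.45 and 7.01 CPM and the floxed mice 3.54, 2.28 and 2.75 CPM. On the high-fat diet the order turned, with 3.33, 3.31, 2.09 and 1.77 CPM in the knockouts against 4.16, 6.24, 4.15 and 3.57 CPM. The groups did not overlap in either table (difference -1.79 ± 0.38, edgeR adjusted p = 0.0449), but the call was lost in 10 of 14 fits that left out 1 library (adjusted p up to 0.138). The other 3 are named after their values were seen. Inside Gm32549, between Camk2n1 and Vwa5b1 (chr4 138513709 to 138514209), the high-fat knockouts held 7.62, 9.93, 15.4 and 9.22 CPM and the floxed mice 3.82, 3.51, 2.89 and 4.15 CPM, whereas the chow groups overlapped at 7.43 to 9.53 and 6.49 to 11.3 CPM (difference 1.73 ± 0.33, edgeR adjusted p = 0.0164). Between Smad2 and Skor2 on chromosome 18 the knockouts were lower on chow (6.07 to 6.9 against 9.9 to 11.1 CPM) and higher on the high-fat diet (4.63 to 6.19 against 3.61 to 4.27 CPM), a difference of 1.24 ± 0.26 (SE, edgeR adjusted p = 0.0396). Between Ttc6 and Sstr1 on chromosome 12 they were higher on chow (22.1 to 26.1 against 14.3 to 21.7 CPM) and lower on the high-fat diet (6.4 to 9.55 against 11.6 to 14.3 CPM), a difference of -1.09 ± 0.23 (SE, edgeR adjusted p = 0.0445).

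**Figure D5:**
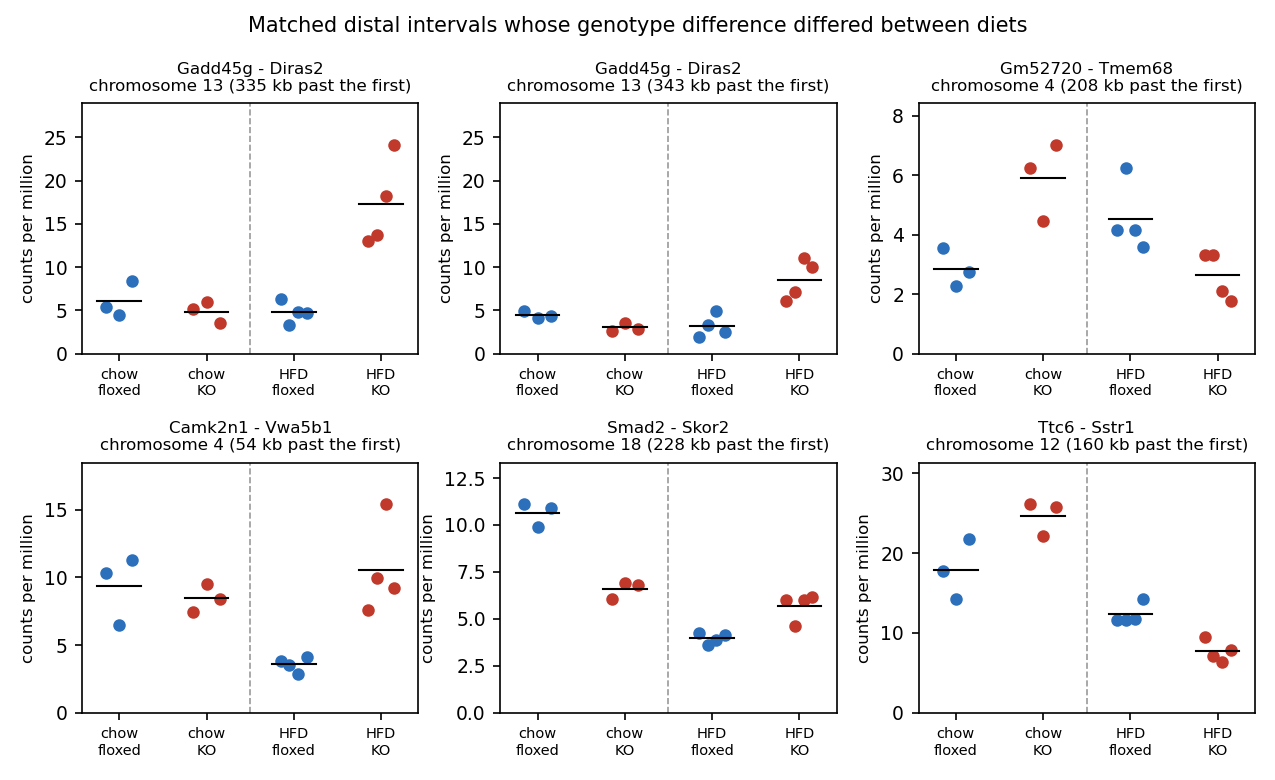
CPM in each library for the 6 matched distal intervals whose genotype difference was called as differing between diets, with floxed in blue, knockout (KO) in red, and a black line at each group's mean. Panel titles give the flanking genes, the chromosome and the distance from the first gene, each vertical axis starts at 0, and the tables were scaled separately, so levels are comparable only within a diet. In both chromosome 13 panels the high-fat knockouts stand above every high-fat floxed library.

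Neighbouring distal intervals tended to differ in the same way, in both tables. For distal neighbours up to 1 kb apart, the correlation of their log2 differences was 0.50 on chow (838 pairs) and 0.65 on the high-fat diet (1131 pairs). At 5 to 20 kb it was 0.30 and 0.20, and at 20 to 100 kb 0.21 and 0.14. Other neighbours up to 1 kb apart gave 0.84 and 0.60. Signs agreed in 71.7% of distal pairs up to 1 kb apart on chow and in 64.8% on the high-fat diet. The high-fat pairs include those of the chromosome 13 run, whose large differences weigh on the correlation. All these values are across intervals that share libraries and depth, and are given as a description.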

How the data were processed

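ATAC-seq counts from 14 mouse livers were used as the authors deposited them: 1 table per diet with whole-number read counts per interval and library, in mm10 coordinates, per the labels. The submitters' processing notes name, in no stated order, MACS2 2.2.7.1 and HOMER 4.11, Bowtie2 2.4.2, Trim Galore 0.6.7, ChIPseeker, bedtools and DESeq2. The handling of duplicates and of reads that align to several places, a shift for the transposase offset and pooling before peak calling are recorded nowhere in the labels or headers. The high-fat columns match single samples. The chow columns name genotype and number only, so each chow library is called by its column's number. All per-sample columns were used. Where nothing names separate litters or batches, p-values measure the spread between these animals.

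Distance was measured from each interval's midpoint to 21900 protein-coding genes of RefSeq's GRCm38.p6 table, and noncoding genes came from the same table. Runs joined intervals whose gaps were at most 5 kb, by position alone, and a run was distal where all its intervals were. Counts of all intervals, of all runs, and of intervals of both tables matched with at least 50% overlap were fitted with edgeR 4.0.16 in R 4.3.3: TMM, filterByExpr, a quasi-likelihood fit of genotype (for matched intervals, the high-fat minus the chow effect over 14 libraries) and Benjamini-Hochberg adjustment at 0.05. DESeq2 1.42.0, limma 3.58.1 with voom quality weights, other scalings and filters, a replicate block, other distances and gaps, and leaving out libraries were alternatives. The fits were tested on simulated counts. The members, lists and tests were chosen with earlier results of these data known.

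Named were, per diet, the 6 largest called rises and falls, the 6 largest called runs, the intervals of the chromosome 13 locus, the 3 most open intervals and the 3 largest called differences between diets. On chow the deviations of every same-numbered pair correlated above 0.1 (0.184, 0.533 and 0.189). So did those of knockout 1 with floxed 3 (0.278) and of knockout 3 with floxed 1 (0.184). These values do not establish a pairing by number, and the number served as a block in an alternative fit only. Chow libraries were deeper (15.5 to 35.0 M counts against 7.59 to 10.4 M), and the common coefficient of variation between animals was 0.187 (chow) and 0.170 (high fat). No library repeated another.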

Additional observations from a re-analysis of the deposited data

Results flagged for a closer look

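At 3 of the named values on the high-fat diet 1 animal stood apart from the other 3 of its group by Dixon's criterion at the 95% level, among 90 groups of 4 examined, of which chance flags about 1 in 20. In the chromosome 13 run, knockout 4 held 24.2 CPM at 52184202 to 52184702, where the other knockouts held 8.37 to 9.92 CPM. At the pseudogene Cyp2d36-ps (chr15 82671389 to 82671889) knockout 1 held 13.9 CPM against 8.33 to 9.01 CPM in the other knockouts. Inside Gm33041 (chr13 52223252 to 52223752) floxed 2 held 9.56 CPM against 7.92 to 8.09 CPM.

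The difference between knockout and floxed itself differed between diets at 6 matched distal intervals in the edgeR fit over both tables, given as high-fat minus chow on the log2 scale. It was higher on the high-fat diet at chr13 52183648 (2.24), chr13 52191281 (2.04), chr4 138513709 (1.73) and chr18 76539425 (1.24). It was lower on the high-fat diet at chr4 3407874 (-1.79) and chr12 57897786 (-1.09).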

How the results depend on the processing

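On the high-fat diet the chromosome 13 run kept its direction and its call in every alternative fit of that run. With the replicate block the 74 called distal intervals became 125 (97 higher, 28 lower), where 1.34% of all intervals were called. They became 41 with a distance of more than 100 kb, which holds fewer intervals. When 1 library was left out there were 25 to 101, where 0.287 to 1.12% of all intervals were called. The 29 called distal runs became 60 with the replicate block (1.77% of all runs called) and 15 beyond 100 kb. Without 1 library they were 11 to 61 (0.281 to 1.79% of all runs). Deviations of same-numbered high-fat libraries correlated weakly or not at all (0.068, 0.131, 0.177 and -0.011). Different-numbered ones gave -0.183 to 0.148, and not every library correlated best with its own number. These values do not establish a pairing by number on the high-fat diet either. On chow the 0 called distal intervals became 20 with DESeq2 (0.617% of all intervals called) and 47 with limma-voom (0.768%). They became 1 with library totals only (0.0261%), 1 with the replicate block (0.143%) and 9 without both libraries numbered 2 (0.378%). Without 1 library they ranged from 0 to 15 (0.0 to 0.685% of all). The 0 called chow runs became 1 with DESeq2 (0.109% of all runs called), 80 with limma-voom (3.51%) and 2 with the block (0.0492%). They became 2 without both libraries numbered 2 (0.0961%), and 0 to 4 without 1 library (0.0 to 0.15%). The 6 called differences between diets became 56 with limma-voom (0.707% of all matched intervals called) and 15 with the replicate block (0.407%). Without 1 library they were 1 to 18 (0.111 to 0.5%). The cause was not tested.

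Of 32 named values that were called none reversed, and 440 of their alternative fits kept the call while 49 lost it, 43 of them by leaving out 1 library, 5 with limma-voom and 1 with DESeq2. The block changed no call among them. Signs turned only for named values near 0 that were not called. These were chr13 52236198 on chow (-0.02), at 0.08 with limma-voom, 0.0 with the block, 0.05 without both libraries numbered 2 and -0.29 to 0.32 without 1 library, and D130051D11Rik on chow (-0.02), at 0.01 with limma-voom and -0.13 to 0.09 without 1 library. The others turned when 1 library was left out: chr12 29290816 (-0.04 to 0.13) and chr3 19894491 (-0.01 to 0.15) on chow, and chr13 52153592 (-0.02 to 0.15), chr13 52236168 (-0.03 to 0.37) and chr3 19894488 (-0.09 to 0.06) on the high-fat diet. The remaining alternatives (RLE size factors, no filter, a minimum of 2 CPM, a distance of more than 25 kb, runs joined at 2 or 10 kb and matching at 80% overlap) kept each count within 1.5 times. A distal interval held a median of 48 to 55 reads per high-fat library and 115 to 231 per chow library. In counts simulated over all intervals at these library sizes, few true log2 differences of 0.5 were called (4.48% on chow, 1.56% on high fat). Of differences of 1, 67.6% and 70.9% were called. Small differences would thus mostly go uncalled in either table. The simulation gave intervals of like level the same spread and no deviation shared within a library, so these shares can be too high. Of simulated chow differences of 2, 100% were called, whereas the measured one of -2.11 at chr9 74526471 was not (edgeR adjusted p = 0.096). Depth was not varied, so its own part was not tested.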
